A study of Danio rerio with 12 samples.

Results

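Vesicle coat, Sec, Arf and Rab genes were followed in whole zebrafish embryos injected with control morpholinos or with morpholinos against pbx2 and pbx4, which encode homeodomain transcription factors. The question at each stage was how these transcripts differed between the injected kinds, and between stages how they changed. A gene was taken as a member where the platform annotation paired its probe set with a single symbol beginning with cop and a subunit letter (a, b, e, g or z), with sec, arf or rab and a number, or with sar1. The rule reads symbols alone, and it was drawn up with earlier results of these data known. This gave 65 of 8793 named genes, on 77 of the 15502 probe sets tested, and a gene with several probe sets was read from the brightest of them, by the mean over the 12 arrays. The members were 7 genes for COPI coat subunits, 9 genes of the COPII coat and its partners and 1 Arf GTPase. With them came 4 genes for protein entry into the endoplasmic reticulum (ER), 3 genes of the Sec22 family and the Sec14-like gene sec14l1. The rest were 36 Rab GTPases and 4 Rab partners. All 65 gene IDs were found in the RefSeq gene table of assembly GRCz12tu, used for names only.

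Control embryos had received, at the 1 to 2 cell stage, control morpholinos that the labels call pbx2 mutant, with no further description. Morphant embryos had received morpholinos against pbx2 and pbx4 (pbx2-MO;pbx4-MO), antisense oligomers that block translation or splicing. Embryos of each kind were collected at 10 and at 18 somites, and the labels number 3 samples in each of the 4 groups without saying whether they came from separate clutches, so p-values here cover only the differences among these samples and may reflect technical spread. The labels name no strain, and no cell type is singled out, since morpholinos reach the whole embryo.

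COPII coats form on the ER when the GTPase Sar1 recruits the inner layer of Sec23 and Sec24, which binds cargo, and the outer cage of Sec13 and Sec31. COPI coats, recruited by Arf GTPases, return material from the Golgi to the ER and move it within the Golgi, while Rab GTPases mark each membrane and bring in the tethers and motors that the next step needs. In zebrafish the COPI genes copa, copb1 and copb2 are the loci of the sneezy, happy and dopey notochord mutants, and sec23a is the locus of the crusher craniofacial cartilage mutant.

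Each value is a log2 signal of 1 probe set on 1 array, so a difference of 1 is 2-fold, and the 3 arrays of a group are given in the order of their replicate numbers. The pbx effect is morphant minus control within a stage, with the standard error (SE) of a linear model over all 12 arrays after ±. A gene is called where limma's test gave a p under 0.05 after Benjamini-Hochberg adjustment over all 15502 probe sets. Array medians lay between 7.289 and 7.313 at 10 somites and between 6.518 and 6.569 at 18 somites, and arrays of a group correlated at 0.995 to 0.998. Both targeted transcripts read higher in morphants, pbx2 by 1.75 and 1.63 and pbx4 by 0.45 and 0.34 at 10 and 18 somites, which does not show the loss of protein that the morpholinos aim at. Arrays with the same replicate number deviated together in every pair of groups compared, and values with the number as a block are given beside the members whose call they change.

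At 10 somites 5 of the 65 members (7.69%) were higher in the morphants and 0 were lower, against 4.32% higher and 3.85% lower among all probe sets tested. The 5 were rab1bb, rab5aa, sec24b, sec14l1 and copa. By limma at an unadjusted p under 0.05, 15 members (23.1%) were higher and 1, rab3ip, was lower, against 12% and 10.4% of all probe sets. The median effect of the 65 members was 0.08, against -0.0045 over all probe sets, and 52 of 65 (80%) lay above 0, against 48.5% of all probe sets. Every morphant array stood above every control array for 17 members (26.2%), against 15.3% of all probe sets, and below every control array for 1, against 13.2%. Named genes, each read from its brightest probe set as the members are, had somewhat higher shares than all probe sets. Of the 8793 named genes 4.98% were called higher and 4.53% lower, 13.3% were higher at an unadjusted p under 0.05 by limma, and 17.2% had every morphant array above every control array. With the replicate number as a block the count was 9 higher (13.8%) and 0 lower, against 6.96% and 6.2% of all probe sets in that fit, adding sec23ip (adjusted p = 0.0362), sec61g (0.042), rab32a (0.0362) and rab3gap2 (0.0272). Leaving out each of the 6 arrays of the stage in turn left 2 or 3 higher, and the share of all probe sets in those fits is not given here. Under quantile normalization of all 12 arrays 6 were higher (9.23%) and 1 (rab3ip) lower (1.54%), against 3.7% and 3.68% of all probe sets.

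At 18 somites 9 members (13.8%) were higher in the morphants and 0 were lower, against 7.11% higher and 5.37% lower among all probe sets. They were rab1bb, rab5aa, sec14l1, rab11bb, sec61g, rab5ab, cope, copb2 and sec23a. By limma at an unadjusted p under 0.05, 18 (27.7%) were higher and 2 lower, against 14.5% and 11.4% of all probe sets. The median effect was 0.12, against 0.001 over all probe sets, and again 52 of 65 lay above 0, against 50.3%. Every morphant array stood above every control array for 19 members (29.2%), against 15.4% of all probe sets, and below for 2, rab32b and rab40c, against 12.7%. Of all named genes 8.28% were called higher and 6.48% lower, 16.3% were higher at an unadjusted p under 0.05 by limma, and 17.4% had every morphant array above every control array. With the replicate block 10 were higher (15.4%) and 0 lower, adding rab18a, against 10.3% and 7.83% of all probe sets. Centring each array on its median gave 7 higher (10.8%) and 1 (rab40c) lower (1.54%), against 5.84% and 6.5% of all probe sets. Quantile normalization gave 11 higher (16.9%) and 1 (rab40c) lower (1.54%), against 6.93% and 6.33%. Leaving out each of the 6 arrays in turn left 4 to 6 higher, again without the share of all probe sets in those fits. Without the 4 arrays numbered 1, a comparison added after the data were seen, 1 member was called at each stage, rab1bb at 10 somites and rab11bb at 18 somites, both higher, against 0.806% and 2.25% of all probe sets.

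Of the 65 members 56 lay above the highest mean of the tag control probe sets, which match no zebrafish transcript, in all 4 groups. Among these 56 effects ran from -0.24 (rab3ip) to 0.42 (rab5aa) at 10 somites and from -0.23 (rab40c) to 0.45 (rab5aa) at 18 somites, and 4 and 7 of them were called, all higher. Among all probe sets, dim ones included, 4.32% and 7.11% were called higher. The other 9, rab1bb and rab11bb among them, stood at the level of those controls or below in 1 group or more, so their values are differences in signal from which no size of a transcript change is read. The arrays were made from whole embryos, so fewer cells of a type and less RNA per cell cannot be told apart. In the plot of effects by role most symbols lie a short way to the right of 0, with the dim rab1bb far out. The cumulative plot sets the 65 members beside all named genes: the curve of the members lies to the right of the other over the lower and middle part of the range and meets it near the top.

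**Figure D1:**
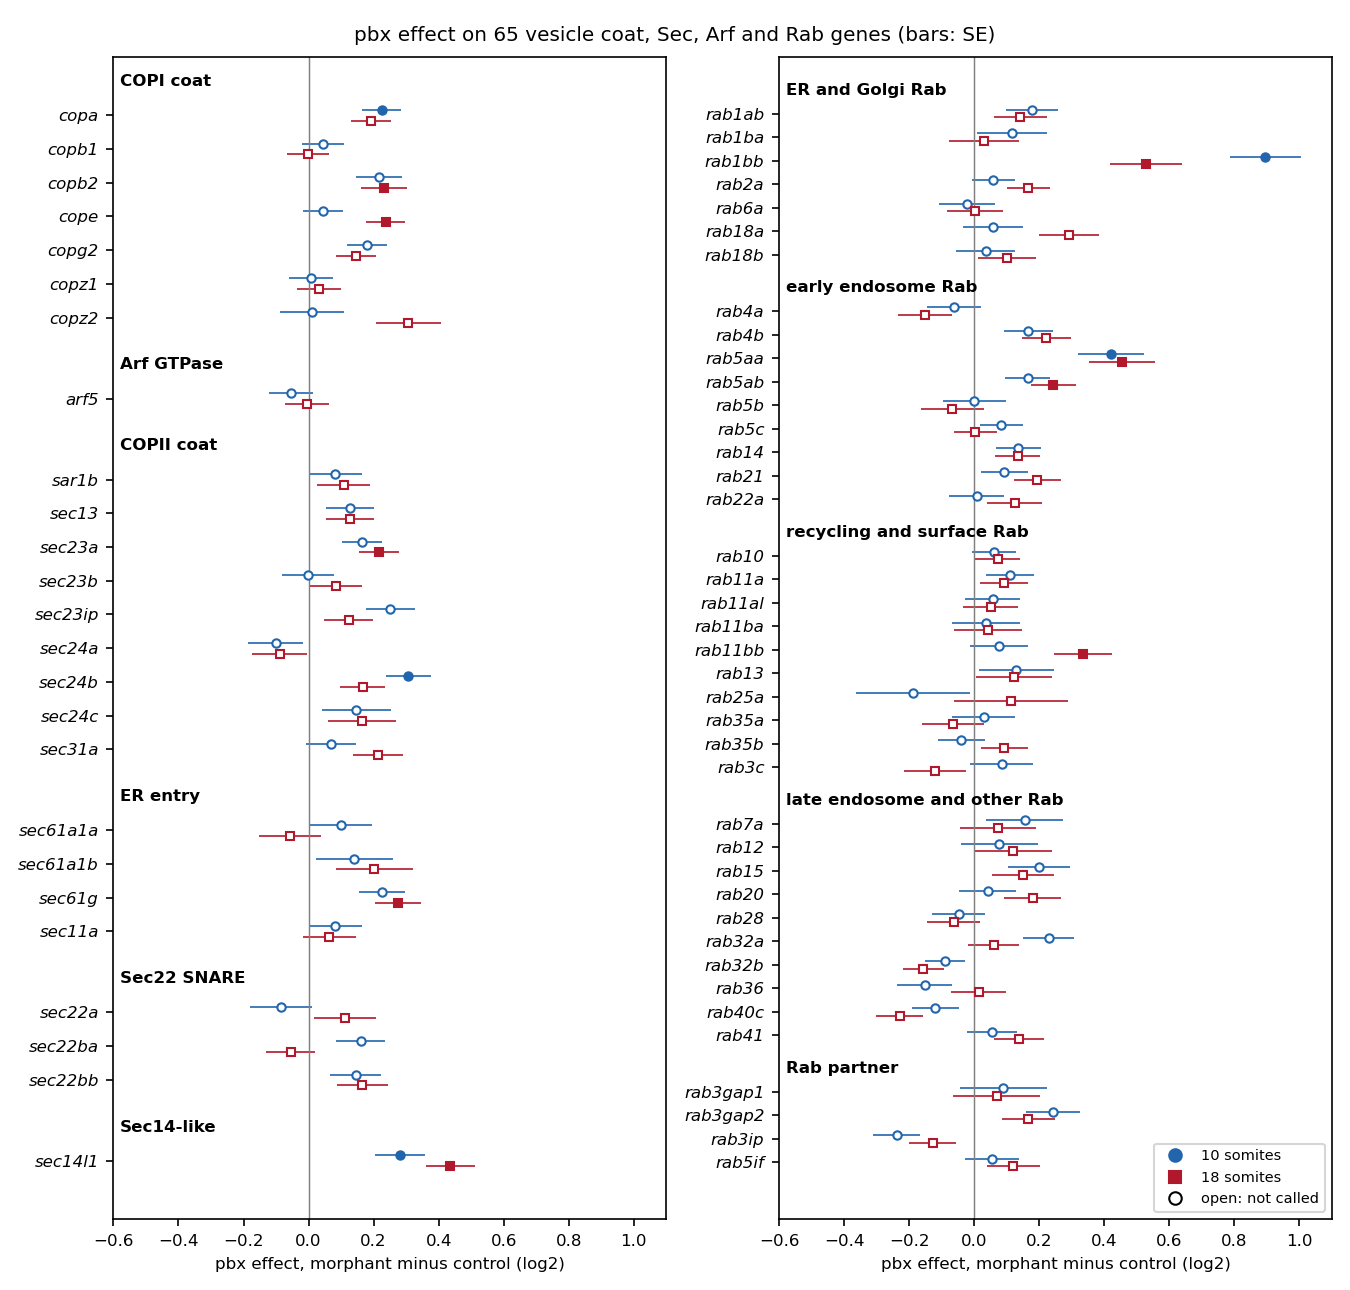
Effect of the pbx morpholinos on each of the 65 members by role, morphant minus control in log2 units (horizontal axis), at 10 somites (blue circles) and 18 somites (red squares), with bars of 1 SE. Filled symbols mark adjusted p under 0.05: 5 members at 10 somites and 9 at 18 somites, all to the right of 0.

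**Figure D2:**
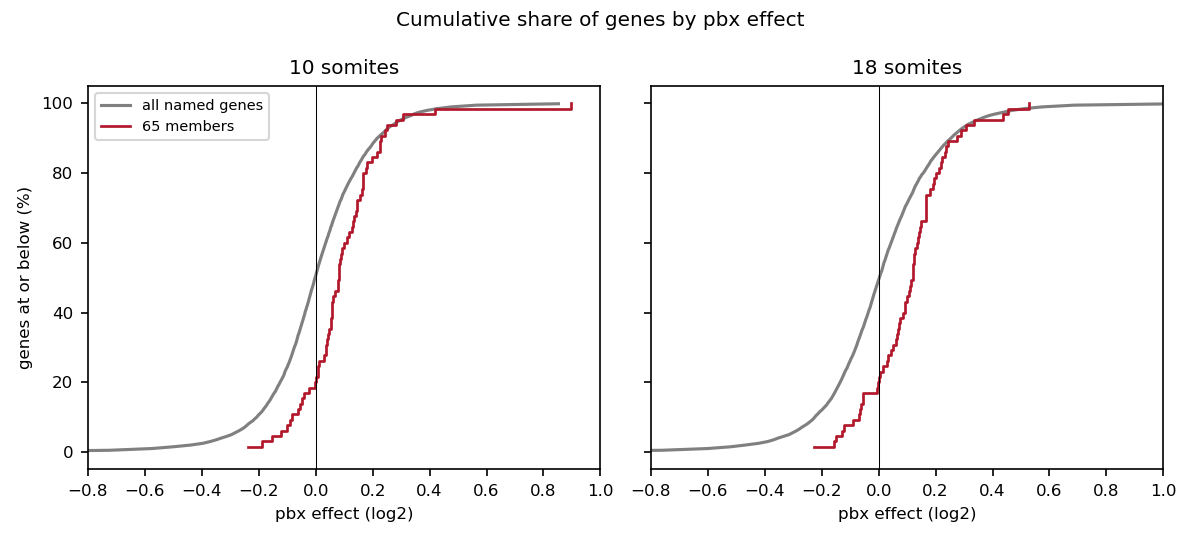
Cumulative share of genes (percent, vertical axis) with a pbx effect at or below the value on the horizontal axis (log2), for all 8793 named genes (grey) and the 65 members (red), at each stage. Of the members, 13 of 65 lie at or below 0 at each stage.

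The COPI coat is a complex of 7 kinds of subunit, and not every kind was among the 7 COPI members. Both copz1 and copz2 are zeta subunit genes, and the symbol rule took in no delta subunit gene. Of the 7 members, 1 (14.3%) was called higher at 10 somites and 2 (28.6%) at 18 somites, with 0 lower. Among all probe sets 4.32% and 7.11% were higher. The median effect of the 7 was 0.045 and 0.19. The gene copa, for the alpha subunit that forms the outer layer with the product of copb2, read 11.39, 11.47 and 11.46 among controls against 11.68, 11.69 and 11.62 among morphants at 10 somites. The groups did not overlap, and copa rose by 0.23 ± 0.06 (adjusted p = 0.0336). At 18 somites it read 10.76, 10.82 and 10.84 among controls against 11.01, 11.03 and 10.95 among morphants, again without overlap, with a difference of 0.19 ± 0.06 (adjusted p = 0.0514) that was not called. The call at 10 somites was lost whichever of the 6 arrays of that stage was left out (adjusted p 0.0557 to 0.114), and the effect stayed between 0.20 and 0.25.

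The gene copb2, for the beta' subunit, read 9.62, 9.54 and 9.47 among controls against 9.72, 9.85 and 9.71 among morphants at 10 somites, a difference of 0.22 ± 0.071 (adjusted p = 0.079) without overlap. Its 18 somite signals were 8.98, 9.04 and 8.89 among controls against 9.28, 9.18 and 9.14 among morphants, also without overlap, and it rose by 0.23 ± 0.071 (adjusted p = 0.0469). This call was lost whichever of the 6 arrays of the stage was left out (adjusted p 0.0525 to 0.155) and on arrays centred on their medians. Its probe set is of a kind that can match several transcripts. The gene cope, for the epsilon subunit, read 11.50, 11.53 and 11.59 among controls against 11.52, 11.61 and 11.63 among morphants at 10 somites, where the groups overlapped, with a difference of 0.045 ± 0.061 (adjusted p = 0.733). Its 18 somite signals were 10.76, 10.77 and 10.79 among controls against 11.05, 11.003 and 10.98 among morphants, without overlap, and it rose by 0.24 ± 0.061 (adjusted p = 0.0206). That call was lost without control replicate 1, control replicate 2 or morphant replicate 1 (adjusted p 0.0578 to 0.0679).

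The other 4 COPI genes were not called at either stage. The gene copb1, for the beta subunit, read 10.81, 10.83 and 10.92 among controls against 10.90, 10.85 and 10.95 among morphants at 10 somites and 10.22, 10.13 and 10.23 among controls against 10.20, 10.24 and 10.14 among morphants at 18 somites, with overlap at both. Its effects were 0.045 (95% interval -0.093 to 0.18, adjusted p = 0.751) and -0.0017 (-0.14 to 0.14, adjusted p = 0.991). The value at 18 somites turned to 0.0088 under quantile normalization and 0.0054 with array weights, so no direction is given for it. The zeta subunit gene copz2 differed by 0.31 ± 0.10 (adjusted p = 0.0582) at 18 somites and 0.011 at 10 somites. The gamma subunit gene copg2 differed by 0.18 (adjusted p = 0.0911) and 0.15 (0.149), and copz1 by 0.008 and 0.031. The single Arf gene measured, arf5, a GTPase of the family that recruits COPI, differed by -0.054 (0.71) and -0.0043 (0.979).

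Of the 9 COPII genes and partners, 1 (11.1%) was called higher at each stage and 0 lower, with medians of 0.13 at both. Among all probe sets 4.32% and 7.11% were higher. The cargo-binding subunit gene sec24b read 9.03, 9.10 and 9.15 among controls against 9.34, 9.40 and 9.46 among morphants at 10 somites, where the lowest morphant array stood above the highest control array, and rose by 0.31 ± 0.069 (adjusted p = 0.0149). The call was lost without control replicate 1 (adjusted p = 0.0624) or morphant replicate 3 (0.0731). At 18 somites sec24b read 8.24, 8.26 and 8.36 among controls against 8.55, 8.38 and 8.43 among morphants, also without overlap, with a difference of 0.17 ± 0.069 (adjusted p = 0.142). Its paralogs differed by -0.10 and -0.089 (sec24a) and by 0.15 and 0.16 (sec24c) at 10 and 18 somites, and neither was called.

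The gene sec23a, for the GTPase-activating subunit of the inner coat, read 9.94, 10.02 and 10.01 among controls against 10.16, 10.18 and 10.13 among morphants at 10 somites, without overlap, a difference of 0.17 ± 0.061 (adjusted p = 0.121). Its signals at 18 somites were 9.20, 9.29 and 9.19 among controls against 9.45, 9.49 and 9.39 among morphants, also without overlap, and it rose by 0.22 ± 0.061 (adjusted p = 0.0319). That call was lost without control replicate 1 or 3 or morphant replicate 1 or 2 (adjusted p 0.0749 to 0.103) and on median-centred arrays. Its paralog sec23b read 9.74, 9.91 and 9.89 among controls against 9.71, 9.94 and 9.88 among morphants at 10 somites and 8.90, 9.02 and 9.06 among controls against 9.03, 9.04 and 9.16 among morphants at 18 somites, with overlap at both. Its effects were -0.002 (95% interval -0.17 to 0.17) and 0.084 (-0.087 to 0.26). Whether sec23a and sec23b responded differently was not tested.

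The start GTPase gene sar1b differed by 0.082 ± 0.082 (adjusted p = 0.625) and 0.11 ± 0.082 (adjusted p = 0.457), and sec31a, for the outer cage, by 0.069 ± 0.077 (adjusted p = 0.667) and 0.21 ± 0.077 (adjusted p = 0.0892). The other outer cage gene, sec13, stood at 0.13 and 0.13. The gene sec23ip, whose product binds Sec23 at ER exit sites, read 7.77, 7.87 and 7.92 among controls against 8.07, 8.09 and 8.16 among morphants at 10 somites, without overlap. The difference was 0.25 ± 0.075 (adjusted p = 0.0564), and it was called with the replicate block (adjusted p = 0.0362). The difference at 18 somites was 0.12 (adjusted p = 0.336).

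Proteins enter the ER through the Sec61 channel. Of the 4 genes of this step 1 (25%) was called higher at 18 somites, against 7.11% of all probe sets, and 0 at 10 somites. The gene sec61g, for the small gamma subunit, read 11.27, 11.44 and 11.44 among controls against 11.66, 11.68 and 11.64 among morphants, without overlap, and rose by 0.27 ± 0.071 (adjusted p = 0.021). The call was lost without control replicate 1 or morphant replicate 1 or 2 (adjusted p 0.0509 to 0.0977). At 10 somites sec61g read 11.92, 12.04 and 12.05 among controls against 12.15, 12.31 and 12.24 among morphants, also without overlap, a difference of 0.22 ± 0.071 (adjusted p = 0.068) that was called with the replicate block (adjusted p = 0.042). The channel-forming alpha subunit genes were not called: sec61a1a differed by 0.10 and -0.056 and sec61a1b by 0.14 and 0.20. The signal peptidase subunit gene sec11a differed by 0.082 and 0.064. None of the 3 genes of the Sec22 family, which includes a SNARE between ER and Golgi, was called, with effects from -0.084 to 0.17 over both stages.

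The gene sec14l1 is a member by its symbol and not a coat gene. Its product carries a lipid-binding domain like that of yeast Sec14. It read 8.51, 8.42 and 8.32 among controls against 8.67, 8.70 and 8.72 among morphants at 10 somites and 7.50, 7.58 and 7.69 among controls against 8.05, 7.91 and 8.12 among morphants at 18 somites. All morphant arrays stood above all control arrays of their stage. It rose by 0.28 ± 0.076 (adjusted p = 0.0355) and 0.44 ± 0.076 (adjusted p = 0.00218). The call at 18 somites held whichever array of that stage was left out. That at 10 somites was lost when control replicate 2 or 3, or any single morphant replicate, was left out (adjusted p 0.0696 to 0.116). Without the 4 arrays numbered 1 the adjusted p was 0.117 and 0.0588.

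Among the 36 Rab GTPases 2 were called higher at 10 somites and 4 at 18 somites, and 0 lower. Of all probe sets 4.32% and 7.11% were higher and 3.85% and 5.37% lower. The medians of the Rab genes were 0.06 and 0.097. The gene rab1bb, for a Rab1 GTPase, which acts in tethering of ER-derived vesicles at the Golgi, was called at both stages from dim signals. At 10 somites it read 5.0, 5.12 and 5.29 among controls against 5.98, 5.95 and 6.16 among morphants, with every morphant array well above every control array, and its signal was higher by 0.90 ± 0.11 (adjusted p = 0.000237). At 18 somites it read 4.90, 4.83 and 5.03 among controls against 5.51, 5.20 and 5.64 among morphants, without overlap, and its signal was higher by 0.53 ± 0.11 (adjusted p = 0.00657). Both calls held whichever array of the stage was left out. Without the 4 arrays numbered 1 the difference at 18 somites was 0.49 and not called (adjusted p = 0.0911).

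Over the 8 tag control probe sets the group means spanned 4.18 to 6.13 on the control arrays and 4.26 to 6.04 on the morphant arrays at 10 somites. The rab1bb means of 5.14 and 6.03 lay within both spans. At 18 somites the spans were 3.62 to 5.25 and 3.63 to 5.28, with the control mean of 4.92 within and the morphant mean of 5.45 above. The medians of the tag means, control then morphant, were 4.78 and 4.69 at 10 somites and 4.17 and 4.12 at 18 somites. Each lay below the rab1bb mean of its group. The part of background in the size of the rab1bb effect was not tested. Of the other members, 7 stood at or below the highest tag mean in all 4 groups (sec22ba, rab18b, rab4b, rab11al, rab15, rab32b and rab3gap1), and sec22ba lay below the lowest tag mean in all 4. The gene rab11bb stood at or below the highest tag mean in the controls at 18 somites. The other Rab1 genes lay above the tag controls in all groups and were not called: rab1ab differed by 0.18 ± 0.081 (adjusted p = 0.211) and 0.14 ± 0.081 (adjusted p = 0.299), and rab1ba by 0.12 ± 0.11 (adjusted p = 0.595) and 0.031 ± 0.11 (adjusted p = 0.899).

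The remaining ER and Golgi Rabs were not called. The gene rab2a, for a Golgi tethering GTPase, differed by 0.059 and 0.17, and rab6a, of Golgi traffic, by -0.022 and 0.0027. For rab18a, a Rab of the ER and lipid droplets, the 18 somite arrays read 6.83, 6.99 and 7.14 among controls against 7.24, 7.22 and 7.38 among morphants. The groups did not overlap, with a difference of 0.29 ± 0.092 (adjusted p = 0.0543) that was called with the replicate block (adjusted p = 0.021). The difference at 10 somites was 0.057.

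Rab5 GTPases govern fusion at the early endosome, and both genes of the Rab5a pair were called. The gene rab5aa read 9.91, 9.93 and 10.01 among controls against 10.35, 10.47 and 10.30 among morphants at 10 somites and 8.82, 9.02 and 8.78 among controls against 9.41, 9.50 and 9.07 among morphants at 18 somites. The groups did not overlap at either stage, though morphant replicate 3 at 18 somites lay close to control replicate 2. It rose by 0.42 ± 0.10 (adjusted p = 0.0207) and 0.45 ± 0.10 (adjusted p = 0.00995), or 1.34-fold and 1.37-fold. At 18 somites the call held whichever array of the stage was left out, and at 10 somites it was lost without replicate 1 or 2 of either group (adjusted p 0.0505 to 0.0889). Without the 4 arrays numbered 1 neither was called (adjusted p = 0.185 and 0.155).

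The gene rab5ab read 10.29, 10.36 and 10.37 among controls against 10.53, 10.48 and 10.50 among morphants at 10 somites, without overlap, a difference of 0.16 ± 0.069 (adjusted p = 0.17). Its 18 somite values were 9.45, 9.43 and 9.38 among controls against 9.79, 9.55 and 9.65 among morphants, also without overlap, and it rose by 0.24 ± 0.069 (adjusted p = 0.0332). The call was lost when any single control replicate, or morphant replicate 1 or 3, was left out (adjusted p 0.0605 to 0.122). The paralogs rab5b (0.00067 and -0.068) and rab5c (0.083 and 0.0037) were not called. Neither were rab4a and rab4b, of fast recycling, at -0.15 and 0.22 at 18 somites, nor rab14, rab21 and rab22a, other endosomal Rabs, whose effects ran from 0.0077 to 0.19 over both stages.

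Rab11 GTPases act at the recycling endosome. The gene rab11bb read 5.39, 5.17 and 5.13 among controls against 5.46, 5.52 and 5.72 among morphants at 18 somites, without overlap, and its signal was higher by 0.33 ± 0.089 (adjusted p = 0.0246). The control mean there stood within the span of the tag controls. The call was lost without control replicate 2 or 3 or morphant replicate 3 (adjusted p 0.0832 to 0.0939). Its second probe set differed by 0.029 ± 0.085 at this stage (adjusted p = 0.881), and the mean of both probe sets was not called (0.18, adjusted p = 0.123). At 10 somites rab11bb read 6.21, 6.32 and 6.16 among controls against 6.39, 6.21 and 6.33 among morphants, with overlap (0.078, adjusted p = 0.678). The genes rab11a (0.11 and 0.093), rab11ba (0.036 and 0.043) and rab11al (0.057 and 0.051) were not called.

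Of the other recycling and surface Rabs, rab3c, of the Rab3 family of regulated exocytosis, differed by 0.084 ± 0.10 (adjusted p = 0.676) and -0.12 ± 0.10 (adjusted p = 0.481). None of rab10, rab13, rab25a, rab35a and rab35b was called, and rab25a, of the epithelial branch of the Rab11 family, had the widest spread, from 7.32 to 8.09 on the control arrays at 10 somites. None of the 10 late endosome and other Rabs was called at either stage, though rab32a, of lysosome-related organelles, stood at 0.23 ± 0.079 (adjusted p = 0.093) at 10 somites and was called with the replicate block (0.0362). The late endosome Rab rab7a stood at 0.15 and 0.074. The lowest effect at 18 somites among all members was that of rab40c, whose product belongs to a family of Rab-like proteins with a SOCS box. It read 6.98, 7.12 and 7.03 among controls against 6.89, 6.71 and 6.83 among morphants, without overlap, a difference of -0.23 ± 0.072 (adjusted p = 0.0532), and -0.12 at 10 somites. It was called lower on median-centred arrays (adjusted p = 0.0304) and under quantile normalization (0.0256).

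None of the 4 Rab partner genes was called. The gene rab3ip, for the exchange factor Rabin8 that activates Rab8, read 8.29, 8.45 and 8.47 among controls against 8.22, 8.16 and 8.11 among morphants at 10 somites. All morphant arrays lay below all control arrays, with a difference of -0.24 ± 0.073 (adjusted p = 0.0599), called lower under quantile normalization (adjusted p = 0.044) and with array weights (0.0121). Its difference at 18 somites was -0.13 (adjusted p = 0.294). The gene rab3gap2, for a subunit of the complex that turns off Rab3 and activates Rab18, read 8.36, 8.37 and 8.46 among controls against 8.54, 8.67 and 8.71 among morphants at 10 somites, without overlap, a difference of 0.24 ± 0.082 (adjusted p = 0.088) that was called with the replicate block (0.0272). Its partner subunit gene rab3gap1 differed by 0.089 and 0.069, with control signals inside the span of the tag controls.

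**Figure D3:**
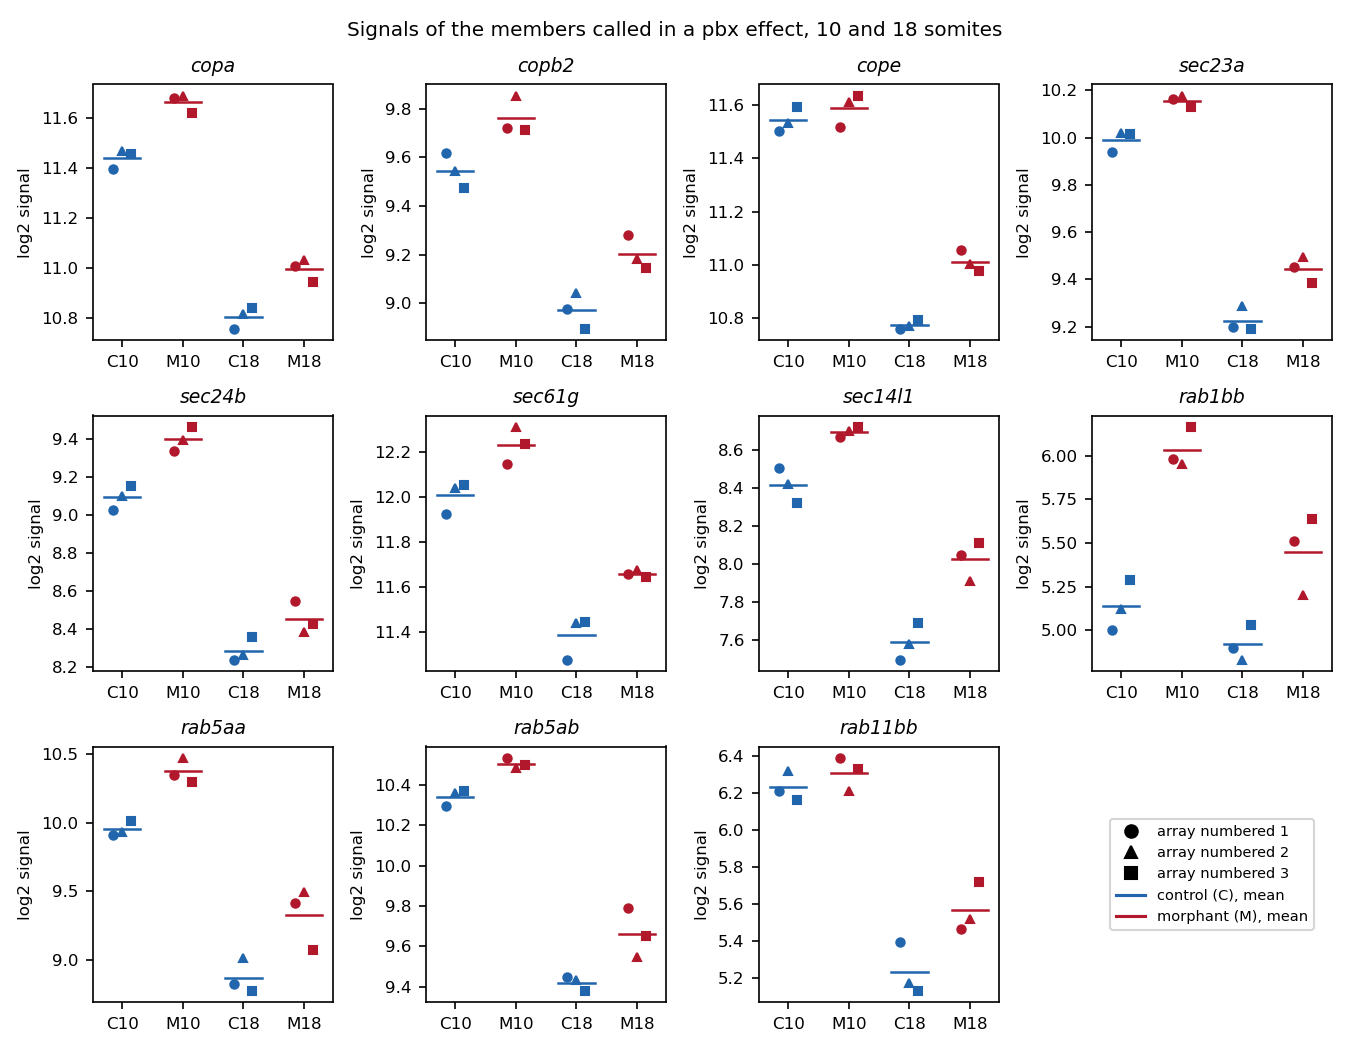
Log2 signal on each of the 12 arrays for the 11 members called at 10 or 18 somites, in control (C, blue) and morphant (M, red) groups at 10 and 18 somites; point shapes give the replicate number and lines the mean of 3 arrays, and each panel has its own vertical scale. The drop from 10 to 18 somites includes the lower array medians at 18 somites, so only groups of 1 stage can be compared by eye.

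The stages share no array, so one can be read beside the other, but they are not separate evidence. Arrays with the same replicate number deviated together across stages, at r from 0.18 to 0.49 in controls and 0.29 to 0.46 in morphants. The model also took 1 spread per probe set over all 12 arrays. Of the 11 members called at either stage, 3 (rab1bb, rab5aa and sec14l1) were called at both, which is 60% of the calls at 10 somites and 33.3% of those at 18 somites. The same overlap over all probe sets is not given here, so these shares are not read as a trait of the members. Effects were above 0 at both stages for 46 members, below 0 at both for 7 and of opposite sign for 12. The same sign thus held for 81.5% of members, against 71.3% of all named genes. At each stage 80% of members lay above 0, against 49.3% and 50.6% of all named genes. A higher share of same signs can follow from that alone, so it does not show closer agreement between stages. Across the 65 members the effects of the stages correlated at r = 0.68 (0.62 without rab1bb), and across all 8793 named genes at 0.69. These values are across genes, which are not independent replicates, and they share the platform and the normalization. The plot of single arrays shows the separation of the groups for the 11 called members.

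The difference between the effects, 18 somites minus 10 somites, was called for 0 members by limma, against 0.0323% of all probe sets, and 2 members (3.08%) had an unadjusted p under 0.05, against 8.11%. They were rab1bb, at -0.37 ± 0.15 (adjusted p = 0.581), and cope, at 0.19 ± 0.086 (adjusted p = 0.607). A call at a single stage therefore does not show a difference between stages. For copz2, with an effect of 0.011 at 10 somites and 0.31 at 18 somites, the difference was 0.30 ± 0.14 with an adjusted p of 0.623.

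For 10 members more than 1 probe set was available, and the plot of probe sets shows them together. All probe sets of a gene had the same sign of effect in 6 of the 10 genes at 10 somites and in 10 of 10 at 18 somites, and no gene had probe sets called in opposite directions. For rab5aa the second probe set gave 0.22 ± 0.081 at 10 somites (adjusted p = 0.117) and 0.47 ± 0.081 at 18 somites (adjusted p = 0.00199). For copa it gave 0.23 (adjusted p = 0.0723) and 0.18 (0.147). For copb2 the 2 others gave 0.15 and 0.12 at 10 somites and 0.18 and 0.18 at 18 somites, none called. For rab40c the second probe set gave 0.16 at 10 somites and -0.0077 at 18 somites, where the used one gave -0.12 and -0.23.

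**Figure D4:**
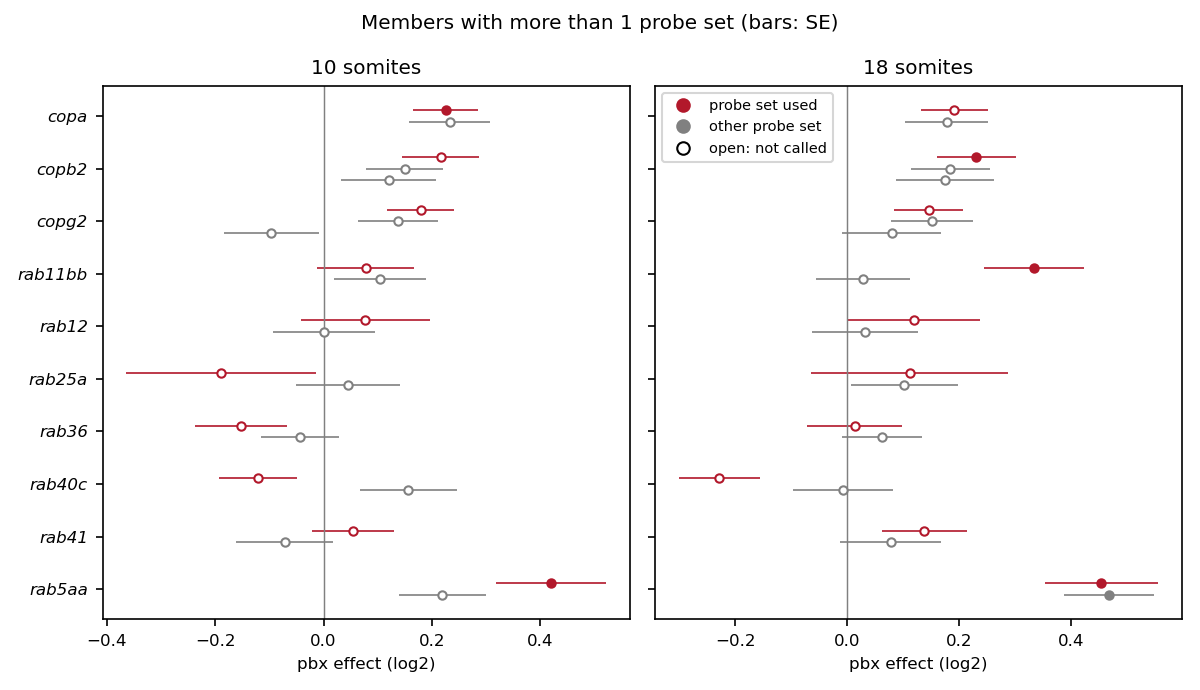
Effect of the pbx morpholinos (log2, horizontal axis, bars of 1 SE) on each probe set of the 10 members that have more than 1, at 10 and 18 somites; red marks the probe set with the highest mean, used elsewhere, and grey the others. Filled symbols mark adjusted p under 0.05; both rab5aa probe sets are filled at 18 somites.

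Other genes of the early secretory pathway were counted from a list of 73, of which 48 were measured. At 10 somites 2 were called higher (4.17%) and 1 lower (2.08%), near the 4.32% and 3.85% of all probe sets, with a median effect of 0.041. At 18 somites 7 were higher (14.6%) and 1 lower (2.08%), against 7.11% and 5.37%, with a median of 0.12. The p24 cargo receptor gene tmed4 rose by 0.59 ± 0.11 (adjusted p = 0.00388) and 0.51 ± 0.11 (0.00672), and trappc11, of the TRAPP complex that activates Rab1, rose by 0.25 ± 0.064 at 10 somites (0.0284). At 18 somites the Golgi SNARE gene gosr1 rose by 0.34 ± 0.072 (adjusted p = 0.00803), scfd1, for the Sly1 partner of SNAREs, by 0.34 ± 0.077 (0.0108), and uso1, for the tether p115 that binds Rab1, by 0.26 ± 0.077 (0.041). Also called higher there were yipf5 and yif1a, for Golgi membrane proteins that bind each other, and spcs3, for a signal peptidase subunit, by 0.37, 0.30 and 0.20. The gene srprb, for a subunit of the receptor that brings ribosomes to the ER, fell by 0.49 and 0.44 (adjusted p = 0.000926 and 0.00146). The 16 genes of both coats had medians of 0.10 and 0.16 beside these.

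Of 76 listed endosome, adaptor and Rab cycle genes 48 were measured. At 10 somites 1 was called higher (rabepk, for a Rab9 effector, 0.41) and 1 lower (vps41, for a tether of late endosomes, -0.43), or 2.08% each, with a median of 0.027. At 18 somites 4 were higher (8.33%) and 2 lower (4.17%), again near the 7.11% and 5.37% of all probe sets, with a median of 0.0028. The 4 were rabac1, for a receptor of prenylated Rabs (0.30), exoc7, of the exocyst (0.24), ap2m1a, of the clathrin adaptor AP2 (0.23), and vps18, of the late endosome tether (0.22). Lower were rabggtb, for the catalytic subunit of the enzyme that prenylates Rabs, at -0.31 ± 0.072 (adjusted p = 0.0127), and the AP2 gene ap2a1, at -0.29. Of the 31 measured genes of the unfolded protein response and ER folding, 2 were higher (6.45%) and 1 lower (3.23%) at 10 somites. The shares of all probe sets there were 4.32% and 3.85%. At 18 somites 5 of the 31 were higher (16.1%) and 2 lower (6.45%), against 7.11% and 5.37%. The stress transcription factor gene atf4a led the higher calls (1.38 and 1.08), and 1 gene does not stand for the list. The median effect of the 31 was 0.063 at 10 somites and 0.08 at 18 somites. Whether the coat and Rab effects are linked to that list was not tested.

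Markers of 7 tissues were set beside these counts. The reference is the whole array, where 4.32% of probe sets passed as higher and 3.85% as lower at 10 somites. At 18 somites the shares were 7.11% and 5.37%. With 5 to 13 markers a tissue, a count of 0 or 1 cannot be told from these shares. Whether larger counts depart from them was not tested. Of 12 neuron markers 0 were higher and 2 (16.7%) lower at 10 somites, and 0 higher and 4 (33.3%) lower at 18 somites. Their mean signal was 7.14 to 7.19 on control arrays against 6.96 to 7.01 on morphant arrays at 10 somites, and 6.86 to 6.95 against 6.65 to 6.74 at 18 somites. Of 13 notochord markers 0 were higher and 1 (7.69%) lower at 10 somites, and 1 (7.69%) higher and 0 lower at 18 somites. Their mean signal was 8.82 to 8.91 against 8.81 to 8.88, then 8.10 to 8.22 against 8.16 to 8.22. Of 5 hatching gland markers, of a strongly secreting tissue, 0 were called at 10 somites. Their effects there were -0.22 (klf17), -0.18 (agr2), 0.037 (cd63), 0.053 (atp6v0ca) and 0.17 (xbp1). No hatching enzyme gene was among them, and their mean signal joins values below and above 0, so the state of the gland is not read from it. At 18 somites 0 of these markers were higher and 1 (20%) lower, the disulfide isomerase family gene agr2 (-0.58, adjusted p = 0.0079). Their mean signal was 10.27 to 10.29 against 10.22 to 10.31, then 9.51 to 9.53 against 9.43 to 9.58. Of 10 markers of the yolk layer and liver plasma proteins 1 (10%) was higher and 2 (20%) lower, then 0 and 3 (30%). Their mean signal was 10.33 to 10.60 against 10.05 to 10.14, then 10.42 to 10.48 against 10.02 to 10.29. At 10 somites ambp differed by -1.18 and rbp4 by -0.96, and tfa was called higher (0.23). The other genes ran from -0.44 (fgg) to -0.0077 (apoeb), with apoa1a at -0.05 and apoa2 at -0.041. Skeletal muscle, with 11 markers, had 0 called higher and 1 (9.09%) lower, then 1 (9.09%) and 3 (27.3%). Epidermis, with 8 markers, had 0 and 1 (12.5%), then 1 (12.5%) and 0. Blood and vessel, with 10 markers, had 0 and 2 (20%), then 1 (10%) and 1 (10%). The mean signals of these 3 ran, control against morphant at 10 somites, at 7.71 to 7.94 against 7.61 to 7.73, 11.997 to 12.04 against 11.94 to 11.96, and 7.33 to 7.44 against 6.90 to 7.02. At 18 somites they ran at 9.06 to 9.18 against 8.44 to 8.95, 11.03 to 11.09 against 10.97 to 11.13, and 7.08 to 7.18 against 6.73 to 7.20. The blood and vessel genes were mixed: lcp1 differed by -2.67 at 10 somites and -1.12 at 18 somites, and spi1b by 0.17 and 0.49. At 10 somites gata1a, hbae3, hbbe3 and tal1 ran from -0.59 to -0.25, and fli1, kdrl, lmo2 and hbbe2 from -0.081 to 0.055. Some listed markers stood at the level of the tag controls, which spanned 4.18 to 6.13 on the control arrays at 10 somites. Examples in that group were snap25a (4.40) and fga (4.71). The part of tissue makeup in the members' effects was not tested.

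From 10 to 18 somites the median change over all probe sets was -0.78 in controls on the deposited scale, so stage changes are given relative to the median of each array. In controls 13 members (20%) were higher at 18 somites and 8 (12.3%) lower, against 24.4% and 26.5% of all probe sets. In morphants 14 (21.5%) were higher and 12 (18.5%) lower, against 24.9% and 28.6%. Of all named genes 21.8% were higher and 29.3% lower in controls, and 22.9% and 32% in morphants. The median change was 0.0063 in controls and 0.046 in morphants, against -0.016 and -0.022 over all probe sets. In both kinds of embryo 9 were higher and 7 lower, 5 were called in controls alone and 10 in morphants alone, which is no test of a difference. Matching counts over all probe sets are not given here, so these are not read as a trait of the members. With the replicate block 16 were higher and 12 lower in controls and 18 and 14 in morphants, against 26.9% and 29.8%, and 27.3% and 31.8%, of all probe sets in that fit. The difference between the stage changes is the same contrast as that between the pbx effects, which was called for 0 members on median-centred arrays too. Under quantile normalization 19 members (29.2%) were higher and 5 (7.69%) lower in controls, against 19.3% and 23.1% of all probe sets. In morphants 23 (35.4%) and 5 (7.69%) were, against 20.9% and 24.5%. On the deposited scale 0 were higher and 63 (96.9%) lower in each, against 93.9% of all probe sets lower in controls and 93.5% in morphants. Each direction here thus holds relative to the array median only.

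The 8 highest called values in controls came from 4 members above the tag controls and 4 at their level or below. The 4 above them were the fast recycling Rab rab4a (0.54 ± 0.083), rab3c (0.41 ± 0.10), rab12 (0.38 ± 0.12) and copz2 (0.34 ± 0.10). The dim ones were rab11al (0.61 ± 0.081), rab1bb (0.55 ± 0.11), rab32b, of lysosome-related organelles (0.47 ± 0.063), and the SNARE gene sec22ba (0.47 ± 0.074), whose values are differences in signal and are given no order. Adjusted p ran from 4.47e-05 to 0.0157 over these 8. For rab4a the centred control signals were -1.20, -1.16 and -1.06 at 10 somites and -0.57, -0.77 and -0.47 at 18 somites, without overlap. For rab3c they were -1.004, -0.67 and -0.89 at 10 somites and -0.46, -0.43 and -0.44 at 18 somites, without overlap. The call for rab12 was lost without control replicate 1 at 10 somites or 3 at 18 somites (adjusted p 0.073 to 0.0852), and that for copz2 without control replicate 2 at either stage (0.0536 to 0.0722).

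Of 8 members whose control means stood at or below the highest tag mean at both stages, 8 had a change above 0 and 4 were called higher (rab11al, rab1bb, rab32b and sec22ba), with a median of 0.37. Of the other 57 members 9 were called higher and 8 lower, with a median of -0.00067. Counts over all probe sets of like brightness are not given here, so neither set of counts is read as a trait of the members. The 8 tag controls themselves changed by -0.47 to 0.61 in controls after the same centring, with a median of 0.14. The part of background in the values of the dim members was not tested. Among the higher calls above the tag controls, those not named above were rab3gap2 (0.27), rab3ip (0.27), sec22bb (0.26), rab5c (0.22) and copb2 (0.19). The replicate block added rab7a (0.29, adjusted p = 0.0019), copg2 (0.15, 0.0437) and the dim rab3gap1 (0.27, 0.0153). Another copg2 probe set, not used, was called lower in controls without the block (-0.35, adjusted p = 0.00477), so no direction is given for copg2.

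The lowest change was that of sec61a1b, a gene for the channel-forming subunit of Sec61. Its centred control signals were 3.56, 3.85 and 3.99 at 10 somites and 3.06, 3.30 and 3.33 at 18 somites. The stages did not overlap, and it fell by 0.57 ± 0.12 (adjusted p = 0.00165) in controls and by 0.53 in morphants (0.00254). Its paralog sec61a1a stood at -0.24 in controls, not called without the replicate block (0.0512) and called lower with it (0.0128), and at -0.42 in morphants (0.00259). The gene rab28, for a Rab linked to cilia and photoreceptors, had centred control signals of 1.03, 1.09 and 1.22 at 10 somites and 0.71, 0.78 and 0.51 at 18 somites, without overlap, a change of -0.45 ± 0.081 (adjusted p = 0.000514).

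The other falls in controls were those of rab5aa (-0.31 ± 0.11), rab21 (-0.30 ± 0.07), sec24a (-0.29 ± 0.08), rab14 (-0.24 ± 0.071), rab11bb (-0.23 ± 0.085) and rab40c (-0.23 ± 0.07), with adjusted p from 0.00279 to 0.036. Leaving out 1 array kept the calls of rab21 and sec24a. Over 15 alternative settings rab21 was called in 15, sec24a in 13, rab14 and rab40c in 12 and rab5aa in 9. The change of sec24a shrank to -0.19 and its adjusted p by limma reached 0.078 among them. For rab11bb 9 of 14 settings kept the call. Leaving out 1 array had the following effects on the other calls. The call of rab5aa was lost without control replicate 2 or 3 at 10 somites or 1 or 3 at 18 somites (adjusted p 0.0511 to 0.0935). That of rab11bb was lost without control replicate 1 or 2 at 10 somites or 2 or 3 at 18 somites (0.0607 to 0.138). That of rab14 was lost without control replicate 3 at either stage (0.0527 to 0.0684), and that of rab40c without control replicate 1 at 18 somites (0.0621). The genes rab11bb and rab40c were not called from the mean of their probe sets, and the 18 somite control mean of rab11bb stood within the span of the tag controls. The replicate block added rab25a (-0.29, adjusted p = 0.0231), rab13 (-0.28, 0.0357) and sec24c (-0.23, 0.0318) as lower in controls. In morphants it added rab7a (0.19, adjusted p = 0.0224), rab3gap1 (0.23, 0.0315), rab3gap2 (0.18, 0.0261) and sec61g (0.17, 0.0279) as higher, and sec24c (-0.23, 0.0301) and rab32a (-0.18, 0.026) as lower. A dim second probe set of rab25a (mean 3.59) went the other way without the block, at 0.22 in controls (adjusted p = 0.073) and 0.25 in morphants (0.0373). The plot of stage changes sets both kinds of embryo side by side: the value of rab1bb was 0.55 in controls and 0.17 in morphants (adjusted p = 0.203), and that of copz2 0.34 and 0.62.

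**Figure D5:**
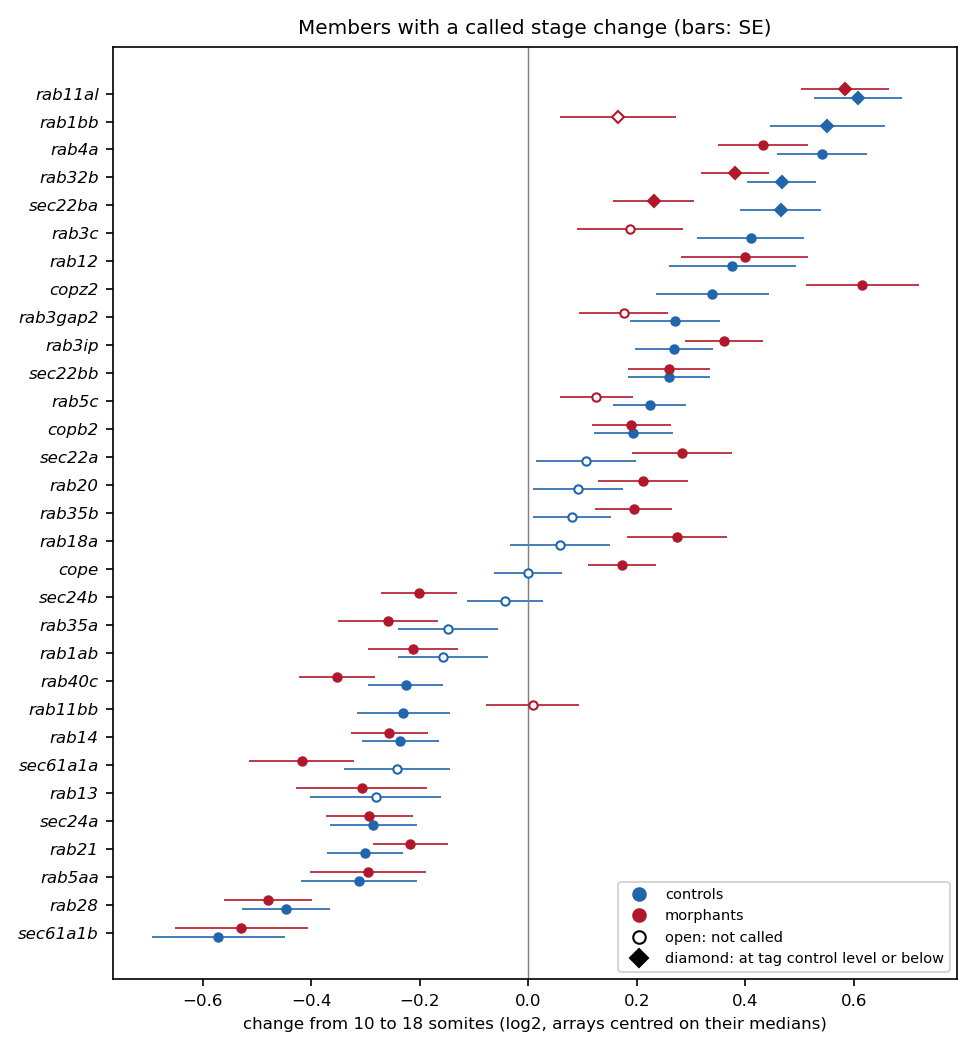
Change from 10 to 18 somites relative to each array's median (log2, horizontal axis, bars of 1 SE) for the 31 members called in controls (blue) or morphants (red); open symbols were not called, and diamonds mark members whose control means lie at or below the highest tag control mean at both stages. The diamonds all lie to the right of 0, and sec61a1b and rab28 lie lowest in both kinds of embryo.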

How the data were processed

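Whole-embryo RNA (6 µg a sample) was biotin-labelled as cRNA for Affymetrix zebrafish arrays, per the labels' protocols. The deposited table holds log2 signals, 1 for each probe set and array, and the submitters' processing notes name RMA and affy without versions. How the authors grouped arrays for normalization was not given in the sources used here. No column was left unused for want of a sample (0 others). The 115 control probe sets were left out. Of 15502 tested, 10795 had 1 gene symbol, 135 several and 4572 none, per the platform annotation.

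With limma 3.58.1 (lmFit and eBayes, R 4.3.3), 1 mean per group was estimated for each probe set from all 12 arrays, on deposited values for pbx effects and median-centred values for stage changes, with two-sided p-values adjusted by Benjamini-Hochberg and a threshold of 0.05. Values after ± are model SEs, and precision is limited by 3 arrays a group. The script was tested on simulated data. The members, lists and tests were chosen with earlier results of these data known. Named were members called in a pbx effect or the difference, the 8 highest and 8 lowest called stage changes in controls, copa, copb1, copb2, sec23a, sec23b, sec31a, sar1b, rab1bb, rab5aa, rab11a and rab3c, and paralogs. Other members are described by role after their values were seen. Same-numbered arrays shared deviations (r from 0.18 to 0.55 over every pair of groups compared), against -0.43 to 0.23 for unlike numbers. Deviations were taken from the group mean and cancel within a group. Higher values for like numbers thus push those for unlike numbers down, and the range for unlike numbers is not separate evidence. At 10 somites control replicate 3 with morphant replicate 2 (0.231) stood above the pair numbered 2 (0.214). The numbers may thus pair the samples, though the labels do not say what they mark. Alternatives were other centring, quantile normalization, the replicate block, array weights, a variance trend, a filter keeping the brightest 60% of probe sets, only the 6 arrays compared, averaging the probe sets of a gene and leaving out arrays.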

Additional observations from a re-analysis of the deposited data

How the results depend on the processing

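The calls rest on few arrays and small effects. Leaving out 1 array at a time gave 2 to 3 members higher and 0 to 1 lower at 10 somites, and 4 to 6 higher and 0 to 1 lower at 18 somites. For stage changes it gave 11 to 13 higher and 5 to 10 lower in controls, and 9 to 12 higher and 7 to 11 lower in morphants. Shares over all probe sets are not given here for fits with 1 array left out, the 6 arrays compared alone or the filter. The counts from those fits are therefore not read as a trait of the members. Without the 4 arrays numbered 1, chosen after seeing the data, 1 member (1.54%) was higher at each stage, against 0.806% and 2.25% of all probe sets in that fit. With the replicate block 9 were higher at 10 somites and 10 at 18 somites, no call was lost in any comparison, and stage changes gave 16 higher and 12 lower in controls and 18 and 14 in morphants. Array weights gave 10 higher (15.4%) and 1 lower (1.54%) at 10 somites, against 8.52% and 7.27% of all probe sets in that fit. The 6 arrays compared alone gave 4 higher at 18 somites. At 18 somites 1 member was lower under median centring, quantile normalization and a filter keeping the brightest 60% of probe sets, and at 10 somites 1 was lower under quantile normalization and that filter. The filter kept 54 members and left 8 higher in the stage change in controls. Quantile normalization gave 5 lower in controls, and 23 higher and 5 lower in morphants. On the deposited scale 0 were higher and 63 lower in both kinds of embryo, since that scale holds the shift of the array medians. There the control changes were -0.16 for rab11al, -0.22 for rab1bb, -0.23 for rab4a, -0.30 for rab32b, -0.30 for sec22ba, -0.36 for rab3c, -0.39 for rab12 and -0.43 for copz2. Values near 0 changed sign: copb1 at 18 somites ran from -0.036 to 0.024 with 1 array left out and was 0.0088 under quantile normalization, 0.0054 with array weights and 0.01 without the arrays numbered 1. The gene sec23b at 10 somites ran from -0.056 to 0.065 with 1 array left out and was 0.011 without the arrays numbered 1. Of 737 values of single genes over 21 settings, 619 kept direction and side of the threshold, 89 lost the call, 11 gained one and 18 changed sign. The causes of these changes between settings were not tested. Signals near the tag controls limit what rab1bb and the 7 members dim in all groups can show.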
